A study of Mus musculus with 7 samples.

Results

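The 7 chemokine receptor mRNAs Cxcr2, Cxcr4, Ccr1, Ccr7, Ccrl2, Cxcr3 and Cxcr6 were taken by symbol from 7 single-cell matrices of mouse leukocytes. They are 7 of the 27514 genes present in both annotations of the series, which list 27998 genes for 5 libraries and 31053 for 2 pools, and each was found in all 7 matrices. The first experiment measured CD45+ heart leukocytes of male C57BL6/J mice, 1 library each from hearts without infarction (steady state) and from days 1, 3, 5 and 7 of infarction. Infarction was induced by permanent ligation of the left coronary artery. Each of these libraries pooled 5 mice, or 3 at day 7, was sorted free of cells reached by CD45.2 antibody from the bloodstream, and had part of the neutrophils removed before the sort. The CD11b+ pool held heart myeloid cells of male C57BL6/J mice, also sorted free of cells that this antibody had reached, that carried 1 hashtag antibody for day 1 (5 mice), another for day 3 (5 mice) and another for day 5 (3 mice) of infarction. The blood and heart pool held CD11b+ cells without Ter119, B220 and NK1.1, from C57BL6/J mice of 8 to 10 weeks: untouched controls (3 mice), sham surgery at day 1 (3) and day 3 (3), and infarction at day 1 (5) and day 3 (5). Its Ly6G+ and Ly6G- cells were mixed in about equal parts, and its 7 hashtags are not paired with tissue or condition in the labels, so they are described 1 by 1. The labels name no transgene, deletion or drug for any group, and the sex of the mice in the blood and heart pool is not given in the sources used here. Mice of a time point were pooled, so no p-value measures the spread between animals. In the fits by day, p-values measure the spread between the CD45+ and CD11b+ experiments. In the pairs of classes they measure the spread over days and experiments. In the class comparisons of the CD45+ libraries they measure the spread between libraries of that 1 experiment.

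Chemokines are small secreted proteins that attract leukocytes through G-protein-coupled receptors. Cxcr2 binds the neutrophil-attracting CXC chemokines and drives release of neutrophils from the marrow and their entry into tissue, while Cxcr4, the receptor for Cxcl12, retains leukocytes in the marrow and rises on ageing neutrophils. Ccr1 binds inflammatory CC chemokines such as Ccl3 on myeloid cells, and Ccrl2 is an atypical receptor that presents chemerin without classical signalling. Ccr7 guides mature dendritic cells and naive lymphocytes to lymph nodes, and Cxcr3 and Cxcr6 mark effector and tissue-homing T and NK cells.

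The genes lie on chromosomes 1, 9, 11 and X of GRCm38. Cxcr2 spans chr1:74153989-74161246 on the plus strand and Cxcr4 chr1:128588199-128592293 on the minus strand. Ccrl2 (chr9:111054486-111057519, minus), Cxcr6 (chr9:123806475-123811760, plus) and Ccr1 (chr9:123962124-123968692, minus) share chromosome 9, with 150.364 kb between Cxcr6 and Ccr1 and 12.749 Mb between Ccrl2 and Cxcr6. Ccr7 spans chr11:99144196-99155077 and Cxcr3 chrX:101731535-101734269, both on the minus strand. Ccr1l1, a near relative of Ccr1, lies beside it at chr9:123977243-123978408, and how the authors' counting split reads between such relatives is not given in the sources used here. Promoter windows from 250 bases before to 50 after a transcription start were matched in RefSeq (GRCm38.p6) for 6 of the 7 members, Ccr7 being the member without an entry. The windows of Cxcr2, Cxcr4, Ccr1 and Ccrl2 are shown 5′ to 3′ because these are the members whose mRNA was higher in neutrophils than in monocytes/macrophages, and capitals mark letters matching a C/EBP motif (TTNNGNAA), a PU.1 motif (AGGAAGT) or an NF-kB motif (GGGA, any 4 bases and CC) on either strand. For Ccrl2, which has 3 windows in RefSeq, the one with matches is shown. The windows are chr1:74153744-74154043 (Cxcr2, plus), chr1:128592250-128592549 (Cxcr4, minus), chr9:123968643-123968942 (Ccr1, minus) and chr9:111057469-111057768 (Ccrl2, minus).
Cxcr2: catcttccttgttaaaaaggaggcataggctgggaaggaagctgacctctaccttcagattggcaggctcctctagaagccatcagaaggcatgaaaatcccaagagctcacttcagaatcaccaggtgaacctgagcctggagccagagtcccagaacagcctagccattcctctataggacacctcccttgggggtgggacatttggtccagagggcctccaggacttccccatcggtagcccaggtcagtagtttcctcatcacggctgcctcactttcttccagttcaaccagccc
Cxcr4: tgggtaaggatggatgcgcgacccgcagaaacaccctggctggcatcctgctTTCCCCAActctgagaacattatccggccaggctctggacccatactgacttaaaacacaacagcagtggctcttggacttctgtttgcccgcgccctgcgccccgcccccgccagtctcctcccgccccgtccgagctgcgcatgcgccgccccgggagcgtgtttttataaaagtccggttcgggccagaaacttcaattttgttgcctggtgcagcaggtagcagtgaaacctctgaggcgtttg
Ccr1: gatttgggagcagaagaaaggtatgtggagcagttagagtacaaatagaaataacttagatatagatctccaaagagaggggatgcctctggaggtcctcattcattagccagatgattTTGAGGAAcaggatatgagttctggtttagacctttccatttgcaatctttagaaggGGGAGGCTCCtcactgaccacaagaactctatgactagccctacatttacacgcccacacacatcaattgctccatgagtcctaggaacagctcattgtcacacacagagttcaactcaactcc
Ccrl2: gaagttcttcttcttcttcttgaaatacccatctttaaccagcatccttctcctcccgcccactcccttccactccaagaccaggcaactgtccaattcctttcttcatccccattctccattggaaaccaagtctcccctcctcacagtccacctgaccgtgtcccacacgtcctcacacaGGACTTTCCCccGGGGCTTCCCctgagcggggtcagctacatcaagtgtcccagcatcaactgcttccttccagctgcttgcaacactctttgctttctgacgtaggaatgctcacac

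The shown Ccr1 window holds a C/EBP match 131 bases and an NF-kB match 74 bases before its start. The shown Ccrl2 window holds 2 NF-kB matches, 68 and 56 bases before the start, both on the opposite strand of the gene. The Cxcr4 window holds 1 C/EBP match 198 bases before the start, and the Cxcr2 window holds no match to these letters. The C/EBP letters occur in 40.7% of 32851 mouse promoter windows of this length, the NF-kB letters in 20.7% and the PU.1 letters in 9.35%, so single matches are common. Among the 6 matched members, C/EBP letters were found for 3, NF-kB letters for 2 and PU.1 letters for 1 (Cxcr3).

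The CD45+ libraries held 527 to 1792 cells after filtering, with median depths of 3592 to 9492.5 UMIs (unique molecular identifiers, 1 per captured mRNA molecule) per cell, the CD11b+ pool 4282 cells at 18082.5 and the blood and heart pool 9999 cells at 4282. Cells were clustered without any chemokine receptor gene and clusters were named from other markers, so the members did not choose the classes. In both pools and in the CD45+ libraries the neutrophil and monocyte/macrophage markers were present, and clusters without a clear set of markers stayed unnamed. CD45+ libraries shared at most 2 barcodes with each other and none with the pools, and the pools shared 28. Levels are given as CPM, the UMIs of a gene per 1000000 UMIs of the summed cells of 1 class and library, with exact Poisson 95% intervals in the plots that cover counting error only. In such sums, fewer cells with the mRNA and less mRNA per cell cannot be told apart.

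**Figure D1:**
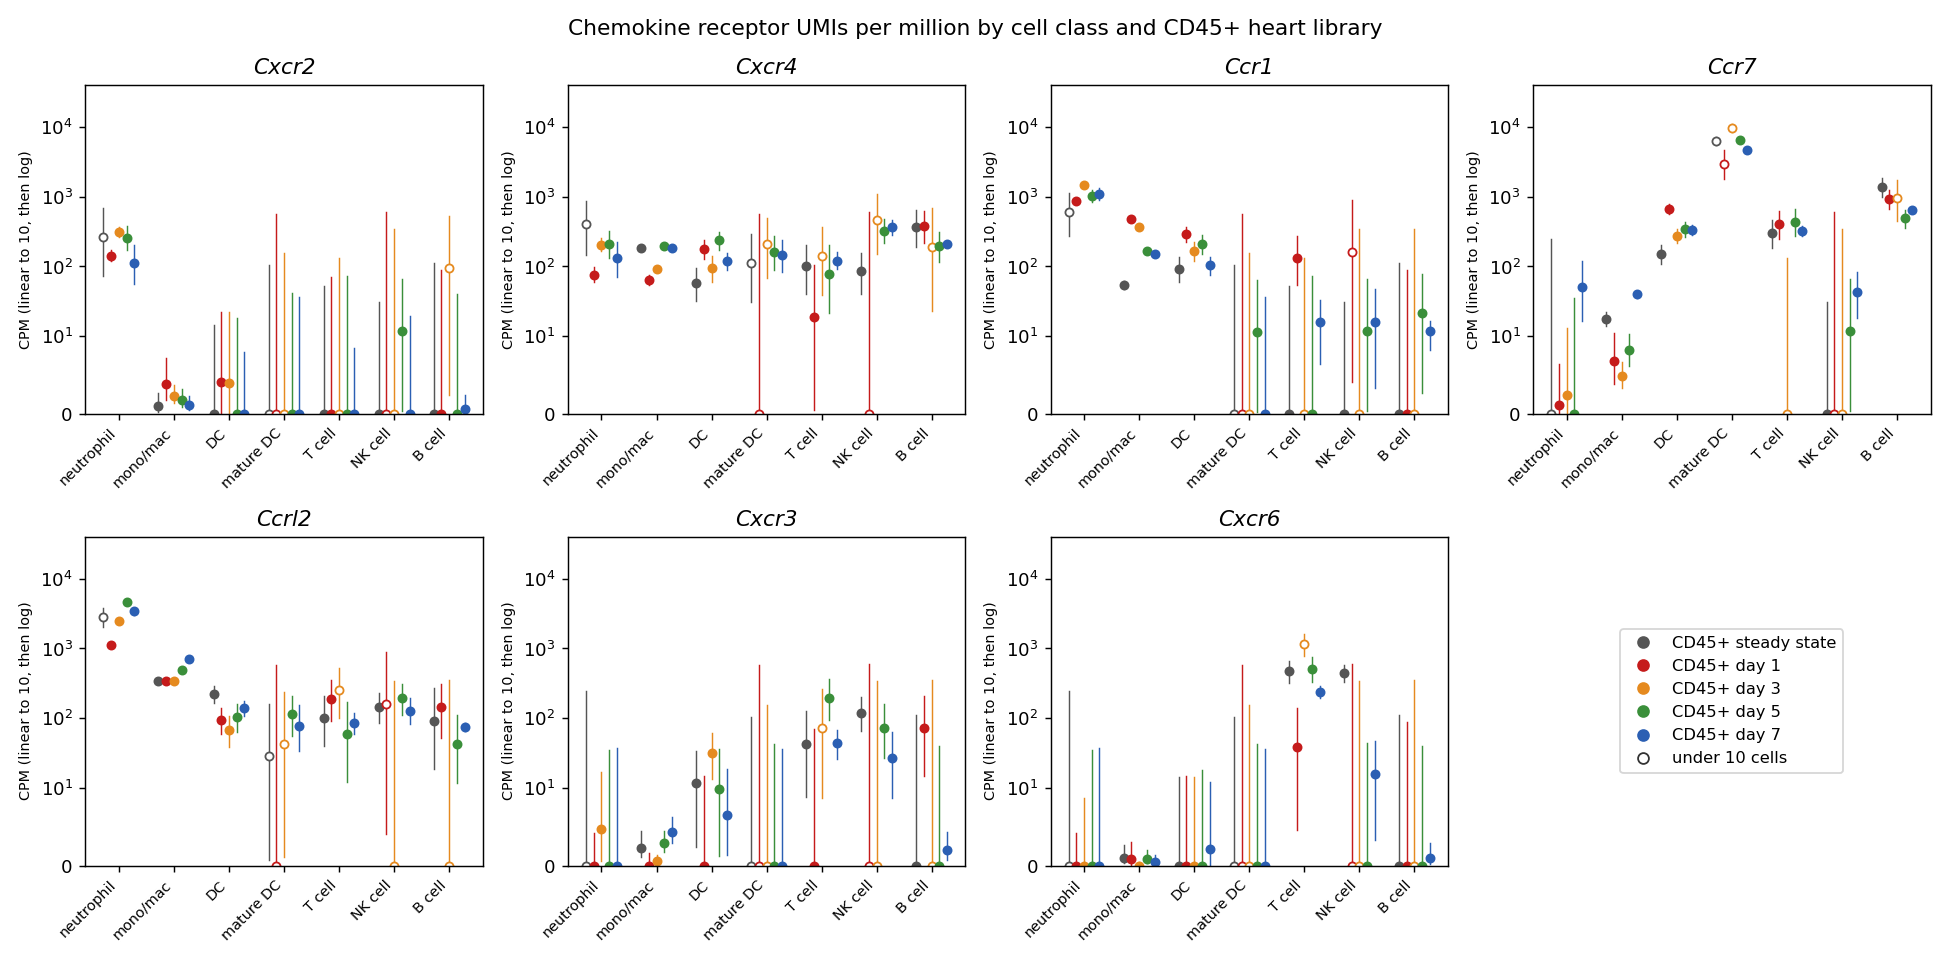
Level of each of the 7 receptor mRNAs (CPM, linear to 10 and logarithmic above) in 7 cell classes of the 5 CD45+ libraries, 1 point per library with its exact Poisson 95% interval; open points are sums of fewer than 10 cells. Cxcr2, Ccr1 and Ccrl2 stand highest in neutrophils, Ccr7 in mature dendritic cells (up to 9798 CPM), Cxcr6 in T and NK cells, and Cxcr4 is spread over all classes.

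In the CD45+ libraries and the CD11b+ pool, Cxcr2 was far higher in neutrophils than in monocytes/macrophages. In the CD11b+ pool, neutrophil Cxcr2 was 623, 361 and 352 CPM at days 1, 3 and 5, against 10.0, 6.03 and 3.61 in monocytes/macrophages. In the CD45+ libraries of the same days it was 143, 312 and 258 CPM in neutrophils and 3.79, 2.35 and 1.80 in monocytes/macrophages. The classes did not overlap: every neutrophil value was above every monocyte/macrophage value. The difference over the 6 pairs of sums was 6.69 ± 0.25 (log2, SE; edgeR adjusted p = 4.2e-11), in a comparison that called 56.5% of 8531 genes. T cells of the 5 CD45+ libraries gave 0 Cxcr2 UMIs, as did mature dendritic cells. After each cell was thinned to 2000 UMIs, Cxcr2 was detected in 63.8%, 43.5% and 45.02% of pool neutrophils at days 1, 3 and 5 (unthinned 77.1%, 62.4% and 59.4% at medians of 4333, 3838.5 and 3896 UMIs). Thinned pool monocytes/macrophages had 1.79%, 1.40% and 0.534% (unthinned 10.2%, 9.65% and 5.76% at 22465, 29048 and 29103 UMIs).

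Ccr1 was high in neutrophils and also present in monocytes/macrophages and dendritic cells. Neutrophil Ccr1 was 1608, 1086 and 1177 CPM in the pool and 856, 1459 and 1032 CPM in the CD45+ libraries at days 1, 3 and 5. Monocyte/macrophage Ccr1 was 413, 226 and 146 CPM in the pool and 483, 369.8 and 165 CPM in the CD45+ libraries. The ranges of the classes did not overlap, and the difference was 2.51 ± 0.21 (log2, SE; edgeR adjusted p = 1.0e-07). Thinned shares were 90.5%, 78.3% and 78.7% of pool neutrophils and 46.2%, 31.7% and 22.5% of pool monocytes/macrophages. Dendritic cells of the CD45+ libraries had 92.9, 291, 166, 207 and 104 CPM at steady state and days 1, 3, 5 and 7, a range that overlapped that of monocytes/macrophages, 54.0 to 483 CPM. B cells at day 7, a class of 963 cells, had 11.8 CPM.

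Ccrl2 was likewise higher in neutrophils. It stood at 2299, 5159.7 and 3742 CPM in pool neutrophils and at 1103, 2469.9 and 4709 CPM in CD45+ neutrophils at days 1, 3 and 5. In monocytes/macrophages Ccrl2 was 333, 338 and 436 CPM in the pool and 345, 346 and 497 CPM in the CD45+ libraries. No neutrophil sum fell into the monocyte/macrophage range, and the difference was 3.32 ± 0.25 (log2, SE; edgeR adjusted p = 2.4e-08). Thinned shares of cells with a Ccrl2 UMI were 72.0%, 89.3% and 84.8% of pool neutrophils against 34.1%, 37.0% and 44.7% of pool monocytes/macrophages.

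Cxcr4 differed less between these classes. Neutrophil Cxcr4 was 686, 1039.9 and 776 CPM in the pool and 76.6, 205 and 210.1 CPM in the CD45+ libraries at days 1, 3 and 5. Monocyte/macrophage Cxcr4 was 174, 269.8 and 355 CPM in the pool and 64.1, 93.1 and 193 CPM in the CD45+ libraries. Each of these 6 neutrophil values was above its own partner, but the ranges overlapped across libraries, and at day 5 of the CD45+ libraries the pair was nearly level. At day 7 of the CD45+ libraries, a day without a partner in the pool, the order was the other way, with 133 CPM in 28 neutrophils and 183 in monocytes/macrophages. The difference over pairs was 1.55 ± 0.30 (log2, SE; edgeR adjusted p = 0.00036). The share of cells with a Cxcr4 UMI went the other way before thinning: it was higher in the deeper monocytes/macrophages, 79.6%, 89.0% and 93.1% of pool cells, than in neutrophils, 68.4%, 81.0% and 75.4%. At 2000 UMIs per cell the pool shares were 52.6%, 70.6% and 61.1% of neutrophils and 26.5%, 38.9% and 42.8% of monocytes/macrophages, and neutrophils were higher in 5 of the 6 pairs, the exception being day 5 of the CD45+ libraries (27.5% against 28.6%).

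All 4 members that passed the filter on low counts were higher in neutrophils, in a comparison where 56.5% of genes passed in either direction and 2149 of 8531 were higher. Ccr7, Cxcr3 and Cxcr6 had too few UMIs in these classes to pass it. In the exact sign-flip permutation test over the 6 pairs of log2 CPM, Cxcr2, Cxcr4, Ccr1 and Ccrl2 were each higher in neutrophils in 6 of 6 pairs (two-sided p = 0.03125, the smallest that 6 pairs allow). In the same exact permutation test Ccr7 was lower in neutrophils in 5 of 6 pairs (mean -1.21, p = 0.0625), Cxcr6 was lower in 4 and higher in 0 (p = 0.125), and Cxcr3 was higher in 3 and lower in 2 (p = 0.5625). The mean pair difference was 5.96 ± 0.63 for Cxcr2 and 1.09 ± 0.79 for Cxcr4 (log2, SD over pairs). Of 18 other chemokine receptors, 4 could be tested, and all 4 were lower in neutrophils, with a median of -3.58 against -0.13 over all genes. They include Ccr2 (-4.03), the receptor that brings monocytes out of the marrow, and Cx3cr1 (-3.46), the fractalkine receptor. Of 20 chemokine ligands, 13 could be tested: 3 were higher in neutrophils, namely Ccl3 (3.60), Cxcl2 (2.43) and Cxcl3 (1.60), and 7 were lower, among them Ppbp (-4.42), Ccl7 (-3.32) and Cxcl16 (-2.30), with a median of -1.05. Ccl3 is a ligand of Ccr1, and Cxcl2 and Cxcl3 are ligands of Cxcr2.

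Monocytes/macrophages changed their receptor mRNAs between days 1 and 5. Ccr1 went from 483 through 369.8 to 165 CPM in the CD45+ libraries and from 413 through 226 to 146 CPM in the pool. Among days 1, 3 and 5, both experiments were thus highest at day 1 and lowest at day 5. Its difference was -1.77 ± 0.20 (log2, SE; edgeR adjusted p = 0.0093), and the separate differences were -1.85 in the CD45+ libraries and -1.70 in the pool. Cxcr4 moved the other way, from 64.1 to 193 CPM in the CD45+ libraries and from 174 to 355 CPM in the pool. Its rise was 1.07 ± 0.21 (edgeR adjusted p = 0.032), with 1.29 and 0.83 in the separate experiments. Cxcr2, at no more than 10.0 CPM in these cells, fell by 1.59 ± 0.32 (edgeR adjusted p = 0.036). These are 3 of the 6 members tested, in a comparison that called 10.4% of 10598 genes.

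The other 3 members tested did not pass from day 1 to day 5. Ccrl2 differed by 0.21 ± 0.15 (edgeR adjusted p = 0.38), Ccr7 by 0.17 ± 0.44 (edgeR adjusted p = 0.84) and Cxcr3 by 3.91 ± 0.95 (edgeR adjusted p = 0.055), the last from 0 and 1 UMIs at day 1 to 19 and 90 at day 5. From day 1 to day 3, edgeR called 0 of 6 members (2 at an unadjusted p under 0.05, and 1 with DESeq2) against 0.878% of genes, Ccr1 differing by -0.85 ± 0.19 (edgeR adjusted p = 0.12) and Cxcr2 by -0.94 ± 0.31 (edgeR adjusted p = 0.21). From day 3 to day 5 it called 0 of 6 (4 at an unadjusted p under 0.05, and 1 with DESeq2) against 0.0283%, Ccr1 differing by -0.93 ± 0.19 (edgeR adjusted p = 0.34) and Cxcr4 by 0.70 ± 0.20 (edgeR adjusted p = 0.48). Without day 1 of either experiment, Ccr1 passed in both steps and Cxcr4 from day 3 to day 5. A lone day 1 sum was then left and assumed to vary like the others, so no weight is put on these calls.

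The Cxcr2 and Cxcr4 calls are less firm than that of Ccr1. With scaling to library totals alone, which moves the median of all genes by 0.23, the differences from day 1 to day 5 were -1.53 for Ccr1 (edgeR adjusted p = 0.017), 1.32 for Cxcr4 (0.028) and -1.36 for Cxcr2 (0.056). Leaving out 1 sum at a time kept Ccr1, ended the Cxcr4 call without day 3 of the pool (edgeR adjusted p = 0.071) or day 5 of the CD45+ libraries (0.22), and ended the Cxcr2 call without any of 5 of the 6 sums, that is each but day 1 of the CD45+ libraries (0.06 to 0.33). Without the experiment term in the fit no member passed (Ccr1 0.30, Cxcr2 0.38, Cxcr4 0.53). Neutrophil mRNA moved in the same direction as Cxcr2 in these sums: the 15 neutrophil markers together made up 19212, 1889.8 and 485 CPM at days 1, 3 and 5 of the CD45+ libraries and 2303, 808 and 672 in the pool. All 15 were detected, except that Ly6g was at 0 at day 5 of the CD45+ libraries. The 16 monocyte/macrophage markers made up 5399, 21059 and 56239 CPM in the same CD45+ sums and 12434, 23069 and 38660 in the pool. At day 1 of the CD45+ libraries they were thus below the neutrophil markers. The part of this neutrophil mRNA in the fall of Cxcr2, and in that of Ccr1, was not tested.

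Different clusters held most monocytes/macrophages on each day. In the CD45+ libraries these were a cluster led by Saa3, Cxcl3 and Arg1 at day 1 (240 of 250 cells), one led by Plac8, Chil3 and Ly6c2 at day 3 (447 of 630) and one led by Ms4a7, Gpnmb and Trem2 at day 5 (477 of 731). Within the pool, Ccr1 of the cluster led by Plac8 and Chil3 was 499.6, 387 and 394 CPM at days 1, 3 and 5, and in a second cluster it was 146 CPM at day 3 and 102 at day 5. The first cluster held 168, 462 and 288 cells on these days and the second 431 and 844 at days 3 and 5, so at day 5 more cells lay in the cluster with less Ccr1. In the CD45+ libraries the Plac8 cluster had 469, 345 and 343 CPM of Ccr1 at days 3, 5 and 7, and the Ms4a7 cluster 211, 118 and 123. Cxcr4 did not sort by cluster in this way: it was 203, 366 and 333 CPM in the first pool cluster and 235 and 376 in the second. How much of the change by day lies within clusters was not tested.

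Of the 5 other receptors tested in these cells from day 1 to day 5, where 10.4% of all genes were called, Cx3cr1 rose (2.02) and the chemerin receptor Cmklr1 fell (-0.89), with a median of -0.26 against -0.01 over all genes. Of 14 ligands tested, 10 fell, among them the Cxcr2 ligands Cxcl3 (-5.85), Cxcl5 (-4.73) and Ppbp (-3.19), and 2 rose, Ccl8 (6.02), listed here as a Ccr1 ligand, and the Cxcr6 ligand Cxcl16 (2.68), with a median of -1.68. By day 3, 2 ligands had fallen, Cxcl5 (-4.38) and Cxcl2 (-1.52).

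**Figure D2:**
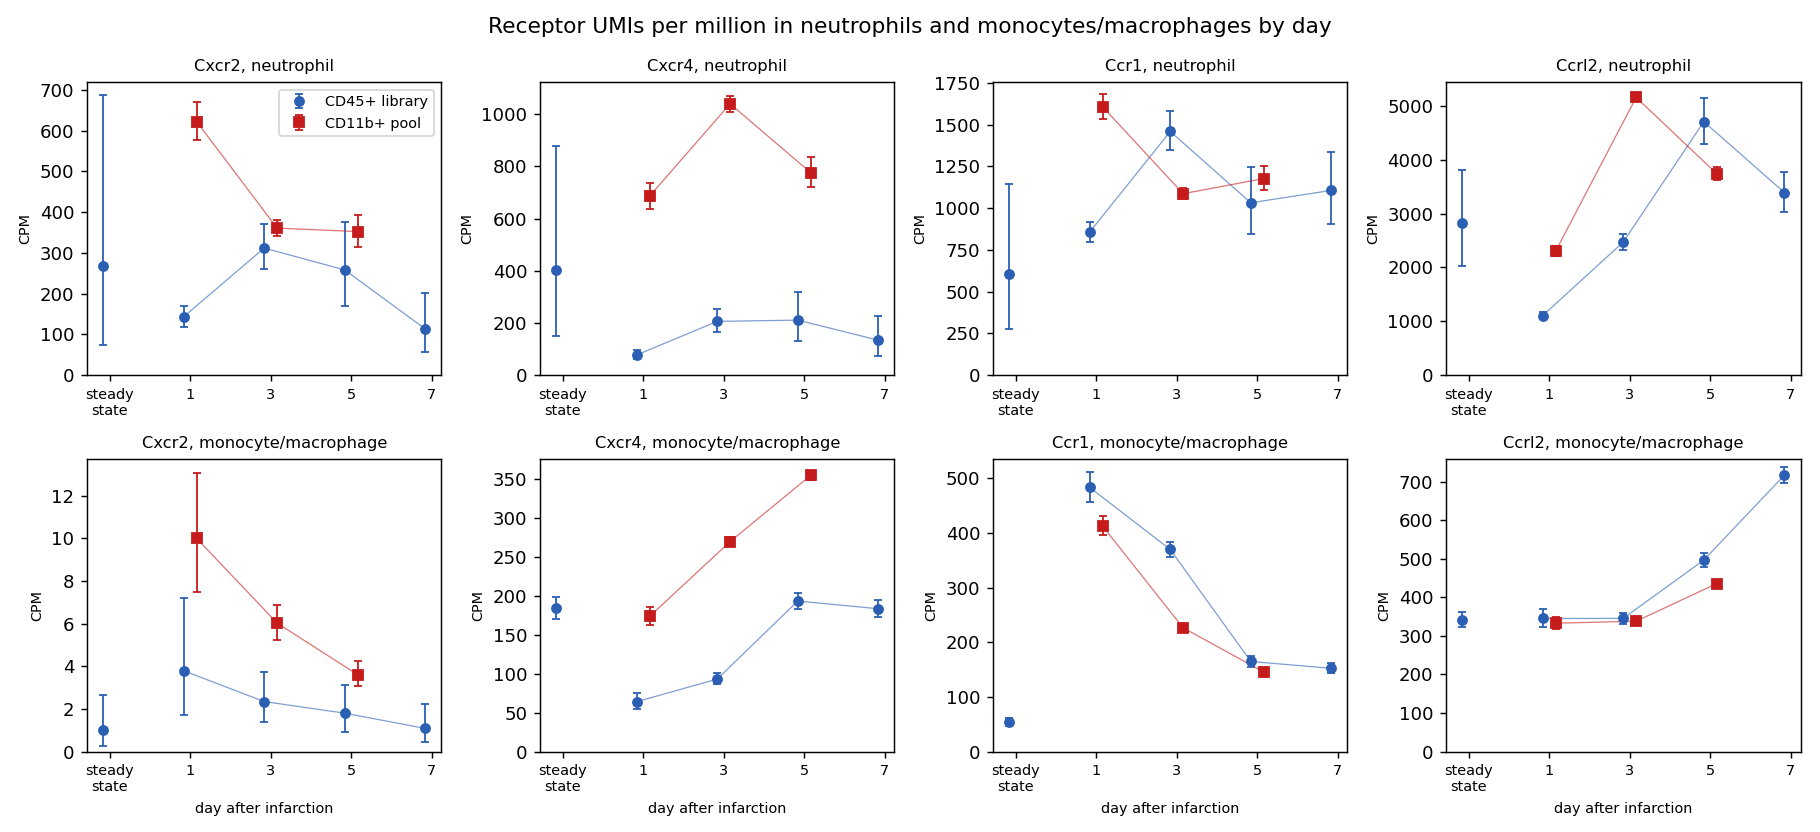
Levels (CPM, linear axis from 0) of Cxcr2, Cxcr4, Ccr1 and Ccrl2 by day in neutrophils (top) and monocytes/macrophages (bottom), with exact Poisson 95% intervals; blue circles are CD45+ libraries, including steady state and day 7, and red squares the CD11b+ pool. Monocyte/macrophage Ccr1 is highest at day 1 in both experiments (483 and 413 CPM), while the experiments differ in neutrophil Cxcr2 at day 1 (143 and 623 CPM).

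In neutrophils no member passed the test between days. Cxcr2 from day 1 to day 3 went from 143 to 312 CPM in the CD45+ libraries but from 623 to 361 CPM in the pool, opposite directions (0.42 and -1.41 on the log2 scale after normalization). The same held for Ccr1 (0.07 and -1.19), whereas Ccrl2 differed by 0.46 and 0.54 and Cxcr4 by 0.72 and -0.03. From day 1 to day 5 the differences in the joint fit were -1.11 ± 0.44 for Ccr1 (edgeR adjusted p = 0.13), -1.10 ± 0.45 for Cxcr2 (0.15), 0.41 ± 0.46 for Ccrl2 (0.62) and -0.25 ± 0.41 for Cxcr4 (0.76). edgeR called 0 of 4 members at each step (at an unadjusted p under 0.05, 0, 2 and 0, and with DESeq2 0 at each step) for day 3 against 1, day 5 against 1 and day 5 against 3, where 2.5%, 7.23% and 0% of 6172 genes were called. The last is 0 genes, with 124 at an unadjusted p under 0.05 and 0 with DESeq2. Among 12 ligands tested, Cxcl3 fell by day 3 (-3.95), and by day 5 Cxcl3 (-5.23), Ccl6 (-2.90), Ccl3 (-1.78) and Mif (-1.77) fell, with a median of -1.69 against -0.03 over all genes.

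These neutrophil values depend on how the sums were scaled. The normalization factors ran from 0.54 to 1.47, and scaling to library totals alone moved the median of all genes by 0.68 from day 1 to day 3 and by 0.89 from day 1 to day 5. With library totals, Ccrl2 differed by 1.46 from day 1 to day 5 (edgeR adjusted p = 0.035), Cxcr4 by 0.74 (0.19), and Cxcr2 and Ccr1 each by -0.12, so that of these Ccrl2 passed and Cxcr4 changed sign. Relative to the median of all genes under that scaling, Ccrl2 was higher and Cxcr2, Ccr1 and Cxcr4 were lower. Without the CD45+ library of day 1, Cxcr2 from day 1 to day 5 was -1.71 and Ccr1 -1.43, and the lone day 1 sum was then assumed to vary like the others.

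**Figure D3:**
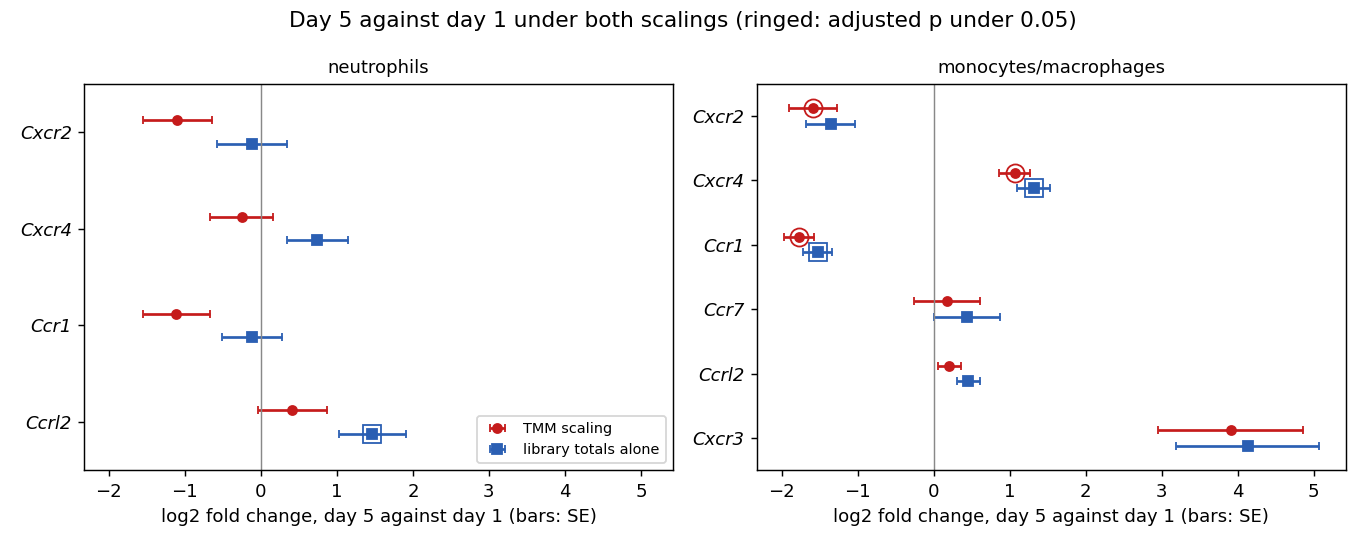
Difference between day 5 and day 1 (log2, ± SE) of each tested member in monocytes/macrophages and neutrophils, with edgeR's TMM normalization (red) and with library totals alone (blue); ringed points have an adjusted p under 0.05. In monocytes/macrophages Ccr1 lies below 0 (-1.77 with TMM) and Cxcr4 above 0 (1.07) under both scalings, while neutrophil Cxcr4 changes side.

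Neutrophils, too, fell into different clusters by day. In the CD45+ libraries a cluster led by Ngp, Retnlg and Lcn2 held 216 of 217 neutrophils at day 1, and a cluster led by G0s2 and Il1r2 held 131 of the neutrophils at day 3, all but 4, and 40 of 40 at day 5. In the pool a cluster led by Tnf and Icam1 held 23 of 253 neutrophils at day 1, 779 of 994 at day 3 and 149 of 224 at day 5, and the rest were in a cluster led by Retnlg and S100a9. Cxcr2 was lower in the Tnf cluster on each day, 419, 306 and 237 CPM against 636, 539 and 629. Ccr1 followed Cxcr2, with 911, 972 and 1026 CPM in the Tnf cluster and 1653, 1459.7 and 1539 in the Retnlg cluster. Ccrl2 was higher in the Tnf cluster at days 1 and 3 and level at day 5, at 4541, 5473 and 3665 CPM against 2151, 4135 and 3927. Cxcr4 crossed over: in the Tnf cluster it was 1200.2, 1056 and 602 CPM, and in the Retnlg cluster 652, 986 and 1194. The clusters come from 1 pool, so their differences have no replicate and were not tested.

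**Figure D4:**
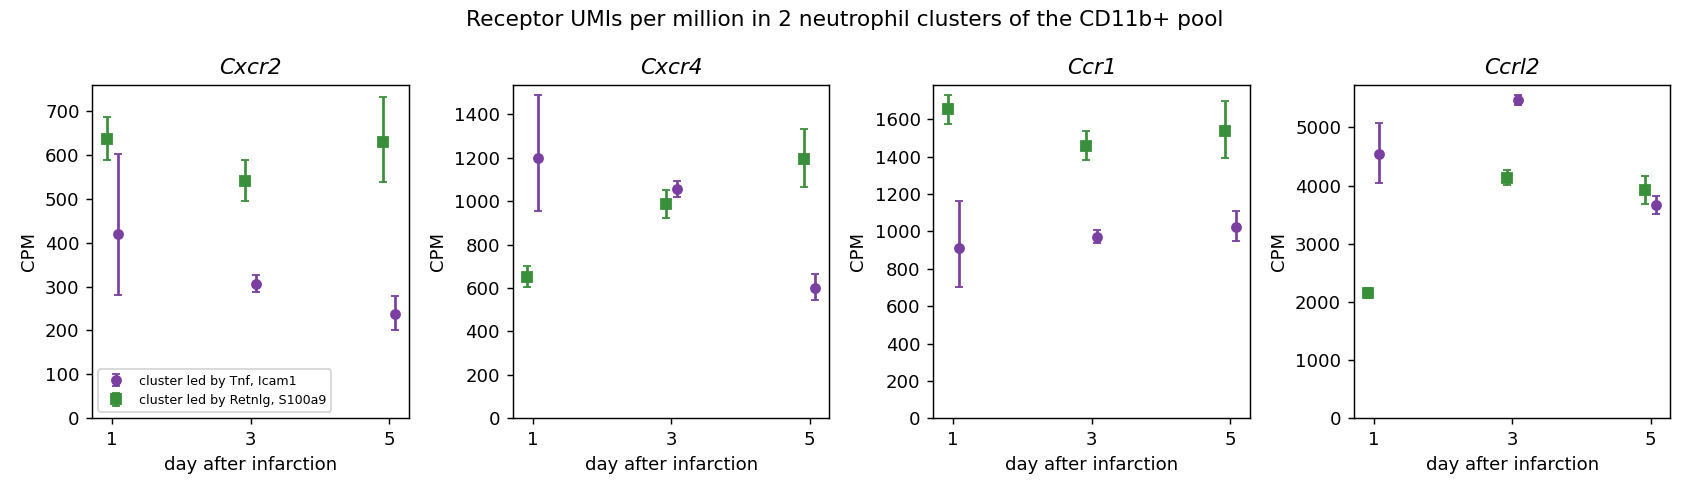
Levels (CPM) of Cxcr2, Cxcr4, Ccr1 and Ccrl2 in the neutrophil cluster led by Tnf and Icam1 and in that led by Retnlg and S100a9, for days 1, 3 and 5 of the CD11b+ pool, with exact Poisson 95% intervals. Cxcr2 and Ccr1 are lower in the Tnf cluster on all 3 days, and Cxcr4 changes order between day 1 (1200.2 against 652 CPM) and day 5 (602 against 1194 CPM).

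Whether the day effects differ between the classes was tested as an interaction over the 12 sums. Cxcr4 from day 1 to day 5 was -1.39 ± 0.42 in neutrophils relative to monocytes/macrophages (log2, SE; edgeR adjusted p = 0.14), and Ccr1 was 0.62 ± 0.45 (edgeR adjusted p = 0.53). edgeR called 0 of 6 members for day 3 against 1, day 5 against 1 and day 5 against 3 (0, 1 and 2 at an unadjusted p under 0.05, and 0, 1 and 0 with DESeq2), where 0.0197%, 0.6% and 0% of 10160 genes were called, the last being 0 genes with 358 at an unadjusted p under 0.05 and 2 with DESeq2. DESeq2 called Cxcr4 for day 5 against day 1 (-1.52, adjusted p = 0.016). Without the CD45+ library of day 1 the edgeR difference was -1.78, but a lone day 1 sum was then left in each class. The rise of Cxcr4 in monocytes/macrophages was not shown to differ from the neutrophil values by the planned test.

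Ccr7 was the member of mature dendritic cells and lymphocytes. Mature dendritic cells, 29 cells in all, had 6272, 2947, 9798, 6517 and 4742 CPM at steady state and days 1, 3, 5 and 7, from 221, 19, 231, 568 and 485 UMIs. All 12 of these cells at day 5 and all 12 at day 7 had a Ccr7 UMI. B cells had 1370.3, 926, 949, 488 and 653 CPM in the same order, with most of the evidence at day 7, where 963 cells gave 1999 UMIs. T cells had 301, 402, 0, 435 and 321 CPM, the value of 0 coming from 4 cells. The remaining dendritic cells had 151, 667, 277, 341 and 332 CPM, a range that overlapped that of T cells. NK cells had at most 43.0 CPM. At day 7, 79.6% of B cells had a Ccr7 UMI (67.3% at 2000 UMIs, median depth 2756), against 10.7% of 28 neutrophils (3.57% thinned, median depth 2689.5).

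In the class comparison of the CD45+ libraries, 3 classes reached 20 cells in at least 3 libraries: neutrophils, monocytes/macrophages and dendritic cells, each set against the mean of the other 2. Dendritic cells were higher in Ccr7 by 5.44 ± 0.46 (edgeR adjusted p = 1.0e-06) and lower in Cxcr2, Ccr1 and Ccrl2, 4 of 5 members tested against 34.8% of 4585 genes called. Neutrophils were higher in Cxcr2 (7.04), Ccrl2 (3.99) and Ccr1 (2.70) and lower in Ccr7, at -3.16 ± 0.74 (edgeR adjusted p = 0.0029), 4 of 5 members against 47.7% of genes. Cxcr4 of neutrophils differed from the other classes by 0.58 ± 0.31 (edgeR adjusted p = 0.14). Monocytes/macrophages were lower in Cxcr2, Ccr1 and Ccr7, 3 of 5 members against 26.8% of genes, the largest p being that of Ccr7, -2.28 (edgeR adjusted p = 0.024). Without the library of day 3 none of these 3 monocyte/macrophage calls passed (Cxcr2 0.11, Ccr1 0.053 and Ccr7 0.072), and that of Ccr1 also ended without day 5 (0.098) or day 7 (0.062). With each cell's class taken from its own marker UMIs, Ccr1 of dendritic cells was -0.10 (edgeR adjusted p = 0.87) and that of monocytes/macrophages -0.15 (0.74).

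T, NK and B cells did not reach 20 cells in enough libraries, so sums of at least 10 cells were also fitted, a choice made after seeing the data, which set 6 classes against each other in 25 sums. Cxcr6 was at 472, 38.3, 1147, 514 and 238 CPM in T cells at steady state and days 1, 3, 5 and 7, the third value from 4 cells, and at 441, 0, 0, 0 and 16.1 CPM in the NK class. Neutrophils and mature dendritic cells had 0 Cxcr6 UMIs in all 5 libraries, and B cells had 3 UMIs over 1017 cells. T cells had the highest level in all 5 libraries, but at steady state the NK class stood close to them. In the other classes fitted, Cxcr6 was at most 2.16 CPM. It thus passed the low-count filter only through T and NK sums, and its T and NK calls below restate these levels. T cells were higher than the other classes by 7.23 ± 0.56 (edgeR adjusted p = 1.1e-09) in Cxcr6, 2.97 ± 0.75 (edgeR adjusted p = 0.0057) in Cxcr3 and 2.39 ± 0.41 (edgeR adjusted p = 0.00013) in Ccr7, and lower in Ccrl2 and Ccr1, 5 of 7 members against 16.6% of 4746 genes. Leaving out the library of day 5 or that of day 7 left 3 of these 5 calls, ending those of Cxcr3 (edgeR adjusted p = 0.16 and 0.086) and Ccr1 (0.066 and 0.33). B cells were higher in Ccr7 by 3.82 ± 0.37 (edgeR adjusted p = 1.8e-08) and lower in Ccr1 and Ccrl2, 3 of 7 members against 25.8%. Cxcr5, the B-cell follicle receptor, was the 1 higher of the 4 other receptors tested there (6.70), and Ccr2 (-2.95) was lower.

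The NK class was higher than the other classes in Cxcr6 by 4.80 ± 0.81 (edgeR adjusted p = 0.00016) and in Cxcr3 by 2.79 ± 0.80 (edgeR adjusted p = 0.019), and lower in Ccr7, Ccrl2 and Ccr1, 5 of 7 members against 12.9% of genes. The Cxcr6 call was lost without the steady state library, at 1.91 (edgeR adjusted p = 0.41). Cxcr3 was lost without steady state, at 2.12 (edgeR adjusted p = 0.25), without day 5 (adjusted p = 0.12) and without day 7 (0.092), and 2, 2 and 1 of the 5 calls were left without day 5, day 7 and steady state. Of the 27 steady state cells named NK, 17 had a Cxcr6 UMI, against 0 of 18 at day 5 and 1 of 40 at day 7. All 17 had at least 2 NK markers and at least 2 of 11 T-cell markers, and 8 had at least 1 marker of group 2 innate lymphoid cells (3 had at least 2). Of the other 10, without a Cxcr6 UMI, the same was true of 10, 7 and 4 (1 with at least 2 of the last markers). At day 5, 15 of the 18 had at least 2 T-cell markers. In the T class at day 7, all 20 cells with a Cxcr6 UMI had at least 2 T-cell markers. Of these, 16 also had at least 1 marker of group 2 innate lymphoid cells, against 18 of 76 without Cxcr6. With at least 2 such markers, as required for the T-cell list, the counts were 4 of 20 and 7 of 76. At least 1 such marker was in 6 of 8 T-class cells with Cxcr6 and 4 of 6 without at steady state. At day 5 it was in 4 of 7 and 3 of 5. Against the NK class, T cells were higher in Ccr7 by 4.22 ± 0.77 (edgeR adjusted p = 0.0015), the 1 call among 7 members where 2.25% of genes were called. For Cxcr6 this difference was 2.02 ± 0.60 (edgeR adjusted p = 0.095) with all libraries and 4.78 (edgeR adjusted p = 0.0011) without steady state, and for Cxcr4 it was -1.32 ± 0.53 (edgeR adjusted p = 0.32).

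Cxcr3 rested on few UMIs. T cells had 42.9, 0, 71.7, 198 and 43.6 CPM at steady state and days 1, 3, 5 and 7, from 3, 0, 2, 10 and 19 UMIs. The NK class had 119 CPM at steady state, 72.4 at day 5 and 26.9 at day 7, so the ranges of the lymphocyte classes overlapped. At day 7, 12.5% of 96 T cells had a Cxcr3 UMI (10.4% at 2000 UMIs, median depth 3734), against 0.623% of 963 B cells (0.415%, median depth 2756). The same shares for Cxcr6 were 20.8% of T cells (15.6% thinned) and 0.312% of B cells (0.208% thinned). In the CD11b+ pool, neutrophils had 0, 27 and 3 Cxcr3 UMIs at days 1, 3 and 5 (0, 6.65 and 3.34 CPM) and monocytes/macrophages 1, 28 and 90 (0.189, 0.789 and 2.14 CPM). In the blood and heart pool, neutrophils of the 7 hashtags had 6 to 16 UMIs each (1.34 to 8.69 CPM) and monocytes/macrophages 0.93 to 2.49 CPM, neutrophils being higher in 6 of 7.

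The fit with at least 10 cells also covered the myeloid classes, where the mean of the other classes then includes lymphocytes. Neutrophils were again higher in Cxcr2 (7.59), Ccrl2 (4.75) and Ccr1 (4.70) and lower in Ccr7 (-3.65), against 44.4% of genes. Monocytes/macrophages were higher in Ccr1 (1.78) and Ccrl2 (1.26) and lower in Ccr7 (-2.70) and Cxcr3 (-2.52), against 38.8%. Dendritic cells were higher in Ccr7 (2.81) and Ccr1 (1.29) and lower in Ccrl2 (-1.13), against 26.8%. The sign of Ccr1 in monocytes/macrophages and dendritic cells is thus opposite to that in the comparison of 3 classes: these cells lie below neutrophils and above lymphocytes. Cxcr4 passed in none of the 6 classes. Its median over the libraries with at least 10 cells of a class was 326 CPM in the NK class (3 libraries), 289 in B cells (4), 183 in monocytes/macrophages (5), 169 in neutrophils (4), 154 in mature dendritic cells (2), 119 in dendritic cells (5) and 89.6 in T cells (4). The ranges over libraries overlapped between neighbours in this order, except that the lowest B-cell value (195) lay just above the highest of monocytes/macrophages (193). Library by library, neutrophils were above monocytes/macrophages in 4 of 5, including steady state, where 7 neutrophils had 403 CPM. Of the 4 other receptors tested, monocytes/macrophages were higher in Cx3cr1 (3.71) and Ccr2 (1.47), and the NK class in Ccr2 (2.46).

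The steady state and day 7 libraries have no counterpart in the other experiment, so their levels are compared without a test. In monocytes/macrophages, Ccr1 was 54.0 CPM at steady state and 152 at day 7, and Ccrl2 was 342 and 717 CPM. Steady state thus had the lowest Ccr1 of the 5 libraries, and day 7 the highest Ccrl2. Cxcr4 was nearly equal, 184 and 183 CPM, and higher in both than at days 1 and 3. Ccr7 was 17.8 and 40.0 CPM, while the summed B-cell markers in the same cells were 31.8 and 296 CPM; the part of B-cell mRNA in this was not tested. A cluster led by Hspa1a, Mgl2 and Cbr2 held 508 of the 524 steady state cells, and within it Ccr1 was 48.6 CPM at steady state and 175 at day 7. The 7 steady state neutrophils gave 4 Cxcr2, 6 Cxcr4, 9 Ccr1 and 42 Ccrl2 UMIs.

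In the blood and heart pool, neutrophils of every hashtag held Cxcr2 at 2124 to 2899 CPM (median 2446), and monocytes/macrophages at 19.0 to 60.4 (median 30.8). Cxcr4 was 223 to 496 CPM (median 294) in neutrophils, highest in Hashtag 7, and 23.1 to 59.2 (median 44.5) in monocytes/macrophages. Neither gene overlapped between the classes, and both, like Ccr1, were higher in neutrophils in 7 of 7 hashtags. The hashtags are parts of 1 library, and no share over all genes is given for them. In the 6 pairs of sums of the other experiments, 56.5% of 8531 genes differed between these classes. Neutrophil Ccr1 was 1052, 740.0, 729, 848, 809, 1193 and 843 CPM in Hashtags 1 to 7, and monocyte/macrophage Ccr1 was 276, 48.8, 52.8, 82.5, 94.6, 363 and 390.3. The monocyte/macrophage values fall apart: Hashtags 1, 6 and 7 lie at 276 to 390.3 and the other 4 at 48.8 to 94.6 CPM. Ccrl2 was 9.23, 4.46, 3.05, 2.42, 5.15, 24.5 and 62.4 CPM in neutrophils and 2.65 to 11.3 in monocytes/macrophages, higher in neutrophils in 4 of 7 hashtags, with Hashtags 6 and 7 above the others. These Ccrl2 levels are far below those of the CD11b+ pool, where no neutrophil sum was under 2299 CPM, and Cxcr2 is the reverse, with no hashtag under 2124 CPM against at most 623 there. The 2 pools differ in tissue, blood cells being present in 1 of them, and in condition and day. The blood and heart pool includes control and sham mice and has no day 5, while the CD11b+ pool is of infarction alone. They also differ in dissociation (mechanical in the blood and heart pool and enzymatic in the other) and in sort. These cannot be told apart, and the difference in levels was not tested.

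**Figure D5:**
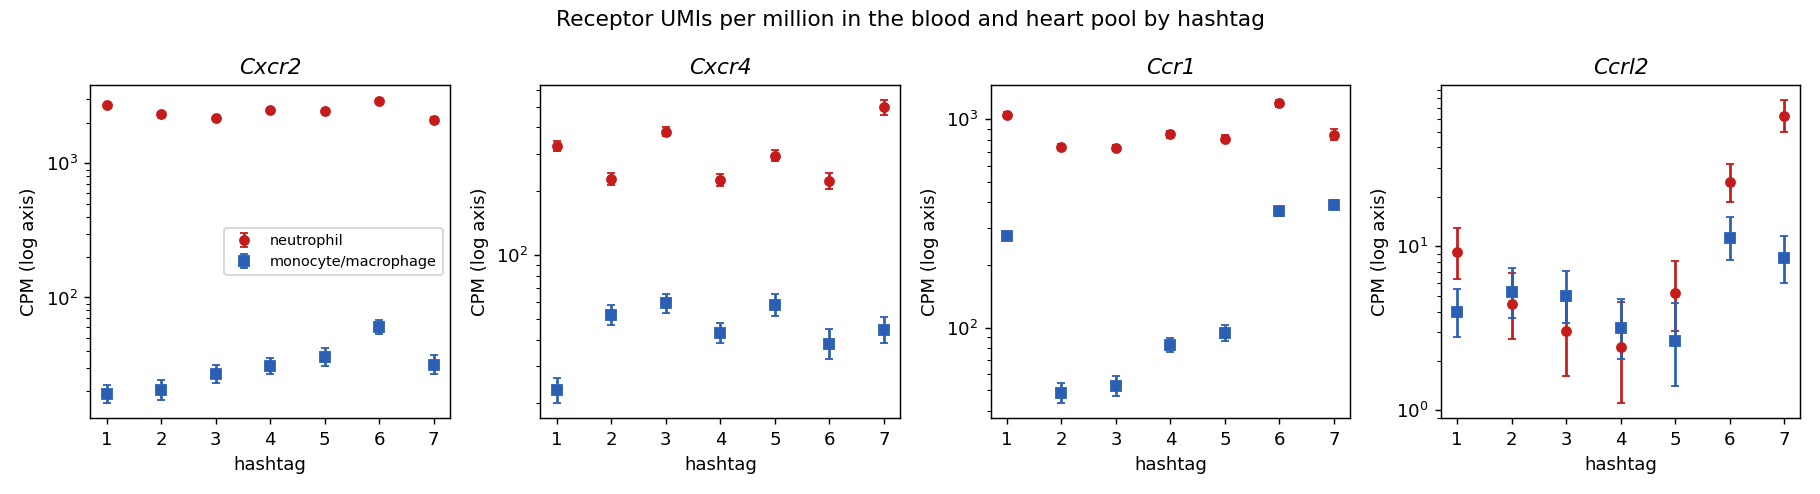
Levels (CPM, logarithmic axis) of Cxcr2, Cxcr4, Ccr1 and Ccrl2 in neutrophils and monocytes/macrophages for each of the 7 hashtags in the mixed blood and heart cells, with exact Poisson 95% intervals. Cxcr2 is level over hashtags in neutrophils (2124 to 2899 CPM), whereas neutrophil Ccrl2 is highest in Hashtags 6 (24.5 CPM) and 7 (62.4 CPM).

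Clusters of this pool differed in the same members. The neutrophil cluster led by Cxcl2 and Il1r2, 516 cells of which 259 carried Hashtag 6 and 240 Hashtag 7, had 66.6 CPM of Ccrl2, 439 of Cxcr4 and 1232 of Ccr1. Within it Cxcr4 was 270.1 CPM in Hashtag 6 and 620.5 in Hashtag 7. The largest neutrophil cluster, led by Retnlg and Mmp8 (2871 cells), had 2.76 CPM of Ccrl2 and 198 of Cxcr4, and the next, led by Fgl2, Il1b and Csf3r (2656 cells), 6.50 and 411. A cluster led by the interferon-induced genes Ifit1 and Rsad2 (264 cells) had 30.8 CPM of Ccrl2. Among monocytes/macrophages, Ccr1 was 7.63 CPM in the cluster led by Ear2 and Ace (818 cells), 163 in that led by Chil3 and F13a1 (1896) and 314 in that led by Cd74 and H2-Ab1 (653). Cxcr4 ran in the opposite order between the first pair of these, 116 and 29.8 CPM. Cxcr2 was also found in small classes of this pool. The mast cell/basophil class, 42 cells, had 507 to 1245 CPM of Cxcr2 in Hashtags 1 to 6 (5 to 50 UMIs each), and the platelet class, 47 cells, had 784 to 3672 CPM in the 7 hashtags (5 to 70 UMIs each). The summed neutrophil markers were 1908 to 28569 CPM in the first class, 6054 to 208725 in the second and 101497 to 257083 in neutrophils, and the part of neutrophil mRNA in these Cxcr2 values was not tested. The B-cell class had 417 CPM of Cxcr2 in Hashtag 4 (19 UMIs, 2 cells) and 165 in Hashtag 5 (13 UMIs, 5 cells), with 0 or 1 UMI in its other hashtags. T cells had at most 7 Cxcr2 UMIs in a hashtag. T cells of Hashtags 1 to 5, 6 to 21 cells each, had 235, 287, 248, 477 and 269.9 CPM of Ccr7.

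The CXCR4 protein was measured by an antibody in this pool. Its median was 11 antibody UMIs per neutrophil in Hashtags 1 to 6 and 10 in Hashtag 7, and 8 per monocyte/macrophage in Hashtags 1 to 5 and 9 in Hashtags 6 and 7. Neutrophils were thus higher in 7 of 7 hashtags, as they were for the mRNA. As a share of a cell's antibody UMIs the medians were 3.33% to 3.802% against 1.88% to 2.42%, but neutrophils had fewer antibody UMIs in all (medians of 279 to 301 against 358 to 472). The CCR3 antibody, with medians of 15 UMIs in neutrophils and 15 to 16.5 in monocytes/macrophages, also took a higher share in neutrophils, 4.92% to 5.24% against 3.42% to 4.24%. Hashtag 7, which had the highest neutrophil Cxcr4 mRNA, had the lowest antibody median. Over cells of 1 class and hashtag, Pearson's r between Cxcr4 mRNA and antibody ran from -0.033 to 0.232 (14 groups of 268 to 1137 cells, all from 1 library), and at these sparse counts no relation is read from it. In the CD11b+ pool, Ccr2 antibody medians at days 1, 3 and 5 were 53, 50 and 49 in neutrophils. They were 51, 49 and 46 in monocytes/macrophages, although Ccr2 mRNA was lower in neutrophils. Cx3cr1 antibody medians were 42, 41 and 42 in neutrophils against 57, 65 and 72, the direction of the mRNA.

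Genes with the most similar pattern were sought over 19 class sums of at least 20 cells from the CD45+ libraries, by Pearson's r of log2(CPM + 1), as a description over sums that share libraries. The sums were 5 of monocytes/macrophages, 4 each of neutrophils and dendritic cells and 2 each of B and NK cells. T cells and erythroid cells gave 1 each. Mature dendritic cells, which had the highest Ccr7, had no sum of that size. For Cxcr2 they were Il1f9 (0.97), Mrgpra2a (0.97) and S100a9 (0.96), of which S100a9 is itself a neutrophil marker here. For Ccr1 they were Snx10 (0.94), Il1rn (0.94) and Clec4e (0.94), and for Ccrl2 Csf3r (0.91), Rabgef1 (0.91) and Cxcl2 (0.90). Of these, Csf3r is the receptor for granulocyte colony-stimulating factor and itself a neutrophil marker here, and Cxcl2 is a Cxcr2 ligand. For Ccr7 they were Btla (0.94), H2-DMb2 (0.94) and H2-Ob (0.92), genes known from B cells, 2 of them parts of the antigen-loading machinery. H2-DMb2 is itself a dendritic-cell marker here. For Cxcr6 they were Cd28 (0.97), Icos (0.96) and Gzmb (0.95), known from activated T and NK cells, and Cd28 is itself a T-cell marker here. For Cxcr4 they included Safb2 (0.92) and Psenen (0.92) and for Cxcr3 Fam189b (0.89), Atp1b1 (0.85) and Sla2 (0.85).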

How the data were processed

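Single-cell RNA was measured in 5 CD45+ libraries (10x v2 chemistry), a hashtagged CD11b+ pool (v3) and a hashtagged blood and heart pool. The deposited values are whole UMI counts per gene and cell made by the authors with Cell Ranger, whose version for the 2 pools is 3.0.2 per the file headers (for the CD45+ libraries the version is not given in the sources used here), on mm10/GRCm38 per the submitters' processing notes. Antibody and hashtag tags of the pools were deposited as counts too.

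Barcodes needed 200 genes, at most 10% mitochondrial UMIs and, in the pools, exactly 1 hashtag; 6.43% and 12.3% of pool barcodes with several hashtags were removed as doublets, 5.01% and 1.41% had none, and 17.4% of the CD11b+ pool exceeded the mitochondrial limit. Scrublet marked 0 to 6 barcodes per CD45+ library. It was not run on the pools, where only barcodes with several hashtags were removed as doublets. Cells were clustered per experiment (scanpy 1.11.5, 2000 variable genes without any chemokine receptor, 30 components, 15 neighbours, Leiden resolution 0.5) and clusters named from marker lists. The members and lists were chosen with earlier results of these data known.

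UMIs were summed per class and library or hashtag and fitted on the whole table with edgeR 4.0.16 (R 4.3.3; TMM, filterByExpr, quasi-likelihood test, two-sided, Benjamini-Hochberg adjustment, threshold 0.05) as day plus experiment, needing 30 cells per sum, or as library plus class, needing 20; the pooled mice of a time point give 1 sum each. All 7 members were read off, with up to 3 largest called changes per list of 18 receptors and 20 ligands. Of the ligands, 17 had exactly 1 row in the annotation of the pools. T, NK and B cells did not reach 20 cells in 3 libraries. The edgeR fit was tested on simulated data. Shares are exact binomial, also with cells thinned to 2000 UMIs. Alternatives were DESeq2 1.42.0, library totals alone, no low-count filter, each library left out, no experiment term, receptors kept in clustering, resolution 1.0, classes from each cell's own marker UMIs, 20% mitochondrial UMIs, other cell minimums, and thinning to 1000 UMIs. Some genes that these rules name are not reported here.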

Additional observations from a re-analysis of the deposited data

Results flagged for a closer look

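Clusters without a clear set of markers were left out of the comparisons, and those of at least 50 cells in which a receptor mRNA exceeded the limit that a count of 0 allows are listed here as levels in CPM, with no control of their own and no test. In the CD11b+ pool, 128 cells led by H2-Eb1, H2-Ab1 and Cd74, genes of antigen presentation, had 337 CPM of Ccr7, above the 0.567 to 1.09 of that pool's monocytes/macrophages, with 388 of Ccrl2, 240.2 of Cxcr4, 230.4 of Ccr1 and 2.60 of Cxcr2. A further 61 cells of that pool, led by Saa3, had 66.4 CPM of Cxcr4 and 32.2 each of Ccr1 and Ccrl2.

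In the CD45+ libraries, 156 cells led by Fabp4, Jchain and Dcn, which are known from different cell types, had 191 CPM of Ccrl2, 85.0 of Cxcr4, 80.8 of Ccr1, 31.3 of Ccr7 and 3.71 of Cxcr3. In the blood and heart pool, 109 cells led by Apoe, Pou2f2 and Ear2 had 816 CPM of Cxcr2, 366 of Ccr1, 188 of Cxcr4 and 15.3 of Ccrl2. Their Cxcr2 lies between the ranges of monocytes/macrophages and neutrophils of that pool. These cells had 9829 median UMIs and also held the neutrophil markers.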

How the results depend on the processing

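Pair differences between neutrophils and monocytes/macrophages kept their 4 calls under each alternative, as the hashtag and antibody counts kept their values. Replicate numbers only name samples here, so none was used as a block; libraries and experiments were the blocks of the fits, and the sign-flip test paired the classes within them. Of 241 alternative values of member counts, 216 lay within 1.5 times the reported count and 25 did not.

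Leaving out 1 sum at a time gave 0 to 3 calls for monocytes/macrophages as a class (reported 3), 1 to 4 for their day 5 against day 1 (3), 0 to 1 for day 3 against day 1 (0) and 0 to 4 for day 5 against day 3 (0). For neutrophils it gave 0 to 1 (day 3 against day 1; reported 0) and 0 to 2 (day 5 against day 1; 0), and for the interaction 0 to 1 for day 5 against day 1 and against day 3 (0 each). In sums of at least 10 cells it gave 1 to 5 for NK cells (5; 2 without day 5, 2 without day 7 and 1 without steady state), 3 to 6 for T cells (5; 3 without day 5 or day 7) and 1 to 2 for T against NK cells (1; 2 without steady state). Classes from own markers gave 2 dendritic cell calls (4) and 1 for neutrophils at day 5 against day 1. DESeq2 gave 1 call each in the interaction of day 5 against day 1 and in monocytes/macrophages at day 3 against day 1 and day 5 against day 3. Without an experiment term, monocytes/macrophages had 0 calls at day 5 against day 1, and with library totals neutrophils had 1 there.

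Some directions reversed. Among values that had passed, Ccr1 of monocytes/macrophages (-0.90) and of dendritic cells (-1.80) was 1.78 and 1.29 in sums of at least 10 cells, where lymphocytes enter the mean of the other classes, and Ccr7 of the monocyte/macrophage class was 1.56 with at least 30 cells per sum, where dendritic cells no longer entered and only neutrophils were left to compare with. The others had not passed. Ccrl2 of monocytes/macrophages (-0.29) was 1.26 in sums of at least 10 cells. Ccr7 of monocytes/macrophages at day 5 against day 1 ranged from -0.089 to 0.90 with 1 sum left out. In neutrophils at day 3 against day 1, Cxcr2 ranged from -1.28 to 0.25 (0.079 with library totals), Ccr1 from -1.10 to 0.0045 (0.10) and Cxcr4 from -0.036 to 0.71. At day 5 against day 1, neutrophil Cxcr4 ranged from -0.57 to 0.17 (0.74 with library totals) and Ccrl2 from -0.13 to 0.83. The cause was not tested.

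Counts of genes called also moved. Monocytes/macrophages had 93 genes at day 3 against day 1 with edgeR, 526 with DESeq2 and 4 with library totals, 1097 against 1663 with DESeq2 at day 5 against day 1, and 3 against 108 at day 5 against day 3. The interaction had 2 against 187, 61 against 532 (726 with library totals) and 0 against 2. Neutrophils had 154 against 409 with library totals, and 446 against 1183. Library totals changed the split of higher and lower genes from 114 and 332 to 1095 and 88 for neutrophils at day 5 against day 1, from 34 and 120 to 359 and 50 at day 3 against day 1, from 470 and 627 to 638 and 346 for monocytes/macrophages at day 5, and from 2149 and 2671 to 1242 and 3479 between the classes. In the class comparison the splits went from 801 and 795 to 1005 and 500 (dendritic cells), from 731 and 497 to 815 and 300 (monocytes/macrophages) and from 1073 and 1116 to 609 and 1614 (neutrophils), and in the interaction at day 5 against day 1 from 36 and 25 to 703 and 23. Depth limits Cxcr3, Cxcr6 and Ccr7 in neutrophils and monocytes/macrophages, and the small lymphocyte sums.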
